A study of Mus musculus with 24 samples.

Results

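The genes described are 10 receptors with which macrophages take up modified lipoproteins, microbes and dying cells: Marco, Msr1, Cd36, Scarb1, Cd68, Stab1, Mrc1, Clec4e, Mertk and Axl. They were chosen by name as a list of scavenger and apoptotic cell receptors, and are 10 of the 24273 genes of the deposited table. All 10 passed the filter on low values, as did 13901 genes in all. They were measured by RNA sequencing in mouse bone marrow-derived macrophages (BMDMs), macrophages grown in culture from bone marrow, of the C57BL/6 strain. All cells carried LysM-Cre, a Cre recombinase placed at the Lyz2 locus and so driven in myeloid cells. The control group is labelled LysM-Cre, and the study's text also gives it a floxed Fos allele opposite a wild-type one. The other group, labelled FosKO, carries floxed Fos on both alleles, and Fos codes for a subunit of the transcription factor AP-1. Cells were rested in low serum and left without stimulus (0 h) or given lipopolysaccharide (LPS, the cell wall component of Salmonella that TLR4 senses, 100 ng/ml), which acted for 0.5, 1 or 2 h. There were 3 libraries in each of 8 groups, 24 in all, and the labels do not say that the libraries of a group came from separate animals, so p-values measure the spread between these libraries.

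Scavenger receptors are a loose family, grouped into classes by structure, that bind polyanionic ligands such as oxidised low density lipoprotein (LDL) and bacterial surfaces and bring them into the cell. C-type lectin receptors bind sugars and glycolipids of microbes. The TAM receptor kinases Mertk and Axl bind phosphatidylserine on dying cells through the bridging proteins Gas6 and protein S, and both signal for engulfment and damp inflammatory signalling in macrophages.

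All values are log2 values as deposited, so a difference of 1 is a doubling, and they are not corrected for gene length, so levels are compared between groups and not between genes. Differences were tested with limma, an adjusted p is a Benjamini-Hochberg value over all 13901 tested genes, and calls were made where it fell under 0.05. Read numbers per library are not known here, and the spread between the 3 libraries is the error given. Within groups, libraries correlated across genes with an r of 0.995 to 0.998 (genes are not independent replicates). The 18S ribosomal RNA gene lay low in 5 libraries, which were replicate 3 of LysM-Cre and replicate 1 of FosKO among those of 0.5 h, and among those of 1 h replicates 2 and 3 of LysM-Cre with replicate 1 of FosKO. Differences within the low and the high set are given below for the 0.5 and 1 h times. The targeted gene did not settle the labels. In the libraries labelled FosKO its mRNA was 1.49 higher before LPS, -0.77 after 0.5 h, and 1.64 and 3.29 higher after 1 and 2 h. From before LPS to 0.5 h Fos rose by 2.41 in LysM-Cre libraries, while its change of 0.15 in those labelled FosKO was not called (limma adjusted p 0.396). A single value per gene does not part the floxed segment from the rest of the mRNA. Lyz2, where Cre sits, was 5.17 higher in libraries labelled FosKO at 0 h. The number of Cre alleles in each group is not stated. Any part of it in the differences below was not tested and cannot be told apart from that of Fos. Directions below follow the labels. The 7 macrophage markers, among them Csf1r and Adgre1, summed to between 16.84 and 17.37 over all libraries, and all 7 were tested. Before LPS 2 of them were called higher in libraries labelled FosKO, Aif1 (0.98) and Fcgr1 (0.65), and 4 lower by 0.14 to 0.22, with Ptprc not called. After 2 h 4 were called higher, Aif1 (1.05), Fcgr1 (0.73), Ptprc (0.31) and Cd14 (0.14), and 0 lower.

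Before LPS, macrophages of the libraries labelled FosKO held more mRNA of the bacterial scavenger receptor Marco (2.76 higher, 6.77-fold), the glycolipid receptor Clec4e (1.02 higher), the apoptotic cell receptor Mertk (0.97 higher), the class A scavenger receptor Msr1 (0.54 higher) and the lysosomal protein Cd68 (0.21 higher). They held less of the class B receptors Cd36 (-0.65) and Scarb1 (-0.17) and of the class H receptor Stab1 (-0.32). The mannose receptor Mrc1 and the TAM kinase Axl were not called. The 8 called members, 5 higher and 3 lower, stand against 35.4% of all tested genes called at 0 h by limma (15.9% called lower, the rest higher). The same 8 members were called in the same directions at 0.5 h, where 40.9% of all genes were called (19.7% lower), and at 1 h, where 33.9% were (15.9% lower). After 2 h the same 5 were higher and Cd36 alone was called lower, against 44.6% of all genes (20.3% lower). Of these calls, that of Clec4e at 2 h was lost when any 1 of the 6 libraries of that time was left out. Quantile normalisation ended those of Cd68 and Clec4e at 1 h and of Msr1, Cd68 and Clec4e at 2 h. Those of Scarb1 and Stab1 at 1 h were lost without single libraries, and Scarb1 was called lower at 2 h after quantile normalisation or with only the groups compared. The median difference of the 10 members was 0.15, 0.24, 0.12 and 0.20 at the 4 times, and that of all tested genes was within 0.004 of 0 at each. Libraries of the genotypes did not overlap in 8, 9, 8 and 8 members at 0, 0.5, 1 and 2 h. Of all tested genes 44.5%, 50.8%, 45.0% and 54.0% did not overlap either.

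**Figure D1:**
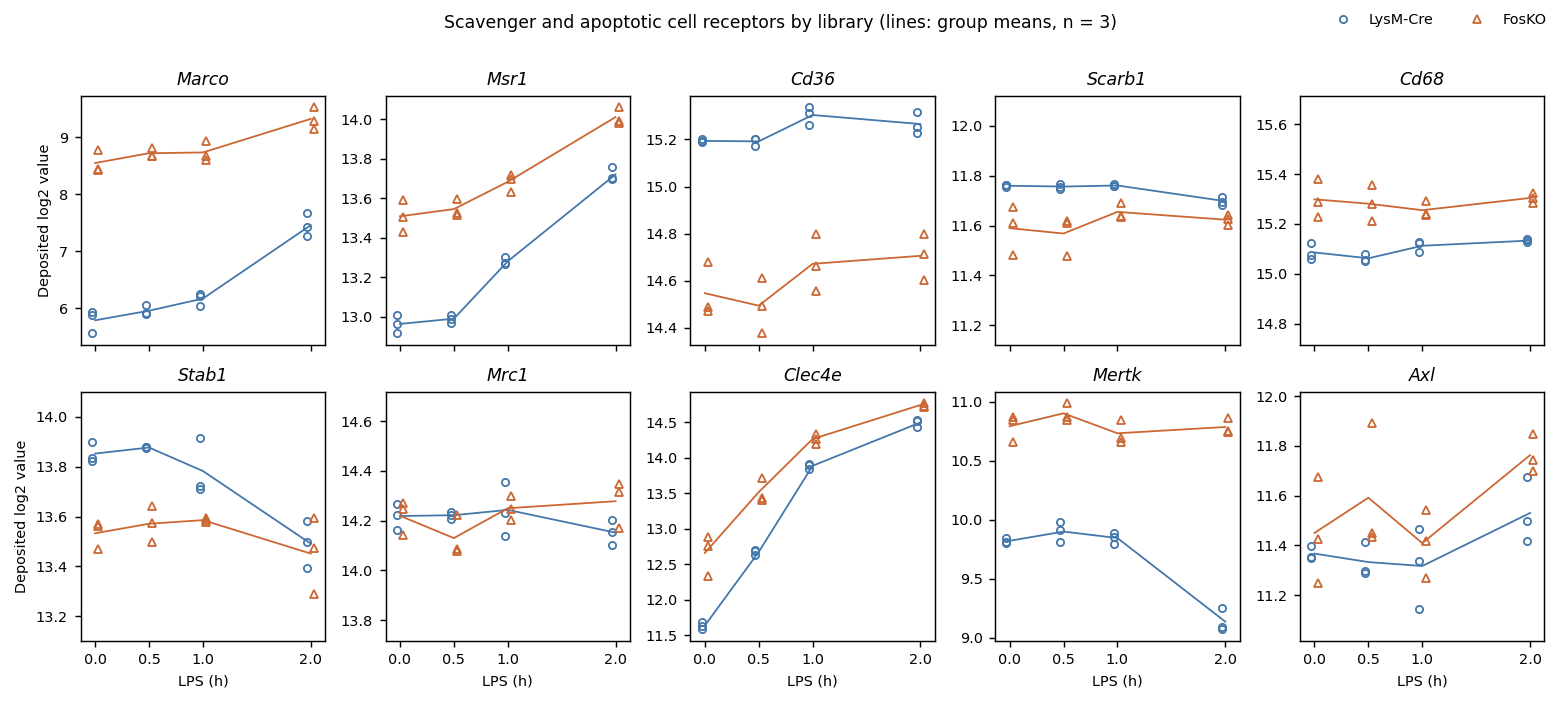
Deposited log2 value (vertical axis, each panel with its own range of at least 1 unit) of each receptor against hours of LPS, with 1 point per library (circles LysM-Cre, triangles FosKO) and lines through the means of 3 libraries. Marco and Mertk libraries labelled FosKO lie above all LysM-Cre libraries of their time, Cd36 libraries lie below them, and Clec4e climbs in both genotypes.

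In LysM-Cre libraries only Clec4e was called at 0.5 h, 1.04 higher than before LPS, against 7.24% of all genes called (5.09% higher, the rest lower). Marco and Msr1 joined it at 1 h, all 3 higher, against 35.8% of all genes (19.2% higher). The Marco call was lost without LysM-Cre replicate 2 at 0 h or replicate 1 or 3 at 1 h (limma adjusted p 0.069 to 0.134). Quantile normalisation ended the Msr1 call (0.0583) and called Scarb1 (-0.15), Cd68 (-0.20), Stab1 (-0.32) and Mrc1 (-0.23) lower. By 2 h Marco, Msr1 and Clec4e were higher and Stab1 and Mertk were lower, 5 of 10 members against 60.8% of all genes (30.6% higher). After quantile normalisation Cd36 (-0.25), Scarb1 (-0.31), Cd68 (-0.32) and Mrc1 (-0.47) were also called lower at 2 h. In libraries labelled FosKO, Clec4e alone was called at 0.5 h (5.92% of all genes; 4.45% higher), and Clec4e and Msr1 at 1 h (32.6% of all genes; 17.6% higher). At 2 h Marco, Msr1, Cd36, Clec4e and Axl were called, all higher, against 62.1% of all genes (32.6% higher). Quantile normalisation left Msr1 and Axl uncalled at 2 h (both 0.02). It called Cd36 (-0.37), Scarb1 (-0.25), Cd68 (-0.52), Stab1 (-0.51), Mrc1 (-0.46) and Mertk (-0.21) lower. At 1 h it called Msr1 (-0.10), Cd68 (-0.33), Mrc1 (-0.29) and Mertk (-0.16) lower. Leaving out 1 library gave 3 to 6 members called at 2 h. The median change of the 10 members at 2 h was 0.06 in LysM-Cre and 0.11 in libraries labelled FosKO, and that of all tested genes was -0.02 and 0.005. Quantile normalisation shifted the members' 2 h changes by a median of -0.32 and -0.44, more than these medians.

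A difference between the genotypes in the response was tested as an interaction, the FosKO response minus the LysM-Cre response. At 0.5 h limma called 0 of the 10 members, and 0 had an unadjusted p under 0.05, against 0.115% of all genes called (0.0144% higher). At 1 h Clec4e alone was called, with a smaller response in libraries labelled FosKO (1.22% of all genes called, 0.489% higher). That call was lost with only the groups compared (limma adjusted p 0.0894) or in the 19 high 18S libraries alone (0.313). At 2 h the responses of Marco, Msr1 and Clec4e were smaller in libraries labelled FosKO and those of Mertk and Stab1 were higher, where 15.0% of all genes were called (7.27% higher). These 5 are the same genes that LPS moved in LysM-Cre at 2 h. The Stab1 call was lost with no filter (limma adjusted p 0.0639), after quantile normalisation (0.134) and under other alternatives given below. The interaction uses the same libraries as the genotype and LPS comparisons, and so adds no separate evidence of either.

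**Figure D2:**
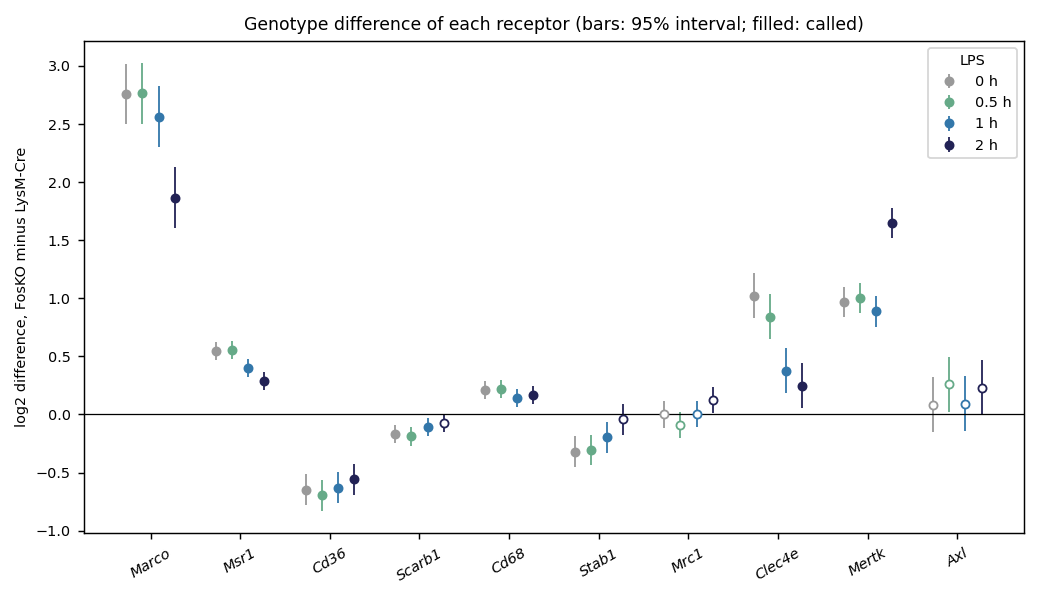
Difference in log2 value between libraries labelled FosKO and LysM-Cre libraries (vertical axis) for each receptor at 0, 0.5, 1 and 2 h of LPS, with 95% intervals from the limma fit on 3 libraries a group, filled where called. Marco falls from 2.76 to 1.87 and Clec4e from 1.02 to 0.25 between 0 and 2 h, Mertk goes from 0.97 to 1.65, and the Mrc1 and Axl points are open.

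The promoters of 8 of the 10 members are in the RefSeq table (build GRCm38.p6, 250 bases before to 50 after the start), and Msr1 and Scarb1 are not among them. They were searched on both strands for the letters of AP-1 (TGANTCA), the factor family of Fos, and of PU.1 (GAGGAA), C/EBP (TTGCNNAA), NF-kB (GGGANTTTCC), NRF2 (TGACNNNGC) and the interferon response element (GAAANNGAAA). The 3 members with the largest ranges are printed, with Cd68 as the single match for AP-1. Sequences read 5′ to 3′ in the direction of the gene, and capitals mark the matches. They are Marco at chr1:120504975-120505274 on the minus strand, Clec4e at chr6:123289822-123290121 on the minus strand, Mertk at chr2:128698665-128698964 on the plus strand and Cd68 at chr11:69666121-69666420 on the minus strand.
Marco: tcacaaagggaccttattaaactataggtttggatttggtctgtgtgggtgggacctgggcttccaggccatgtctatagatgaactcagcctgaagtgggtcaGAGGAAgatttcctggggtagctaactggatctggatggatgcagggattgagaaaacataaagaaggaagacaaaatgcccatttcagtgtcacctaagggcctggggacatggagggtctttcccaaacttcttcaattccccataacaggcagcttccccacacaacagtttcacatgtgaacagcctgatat
Clec4e: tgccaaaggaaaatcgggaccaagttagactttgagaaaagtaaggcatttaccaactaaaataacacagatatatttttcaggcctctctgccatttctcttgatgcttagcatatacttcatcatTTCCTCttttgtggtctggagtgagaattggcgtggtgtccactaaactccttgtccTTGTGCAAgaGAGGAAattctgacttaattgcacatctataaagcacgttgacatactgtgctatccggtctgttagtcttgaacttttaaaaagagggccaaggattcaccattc
Mertk: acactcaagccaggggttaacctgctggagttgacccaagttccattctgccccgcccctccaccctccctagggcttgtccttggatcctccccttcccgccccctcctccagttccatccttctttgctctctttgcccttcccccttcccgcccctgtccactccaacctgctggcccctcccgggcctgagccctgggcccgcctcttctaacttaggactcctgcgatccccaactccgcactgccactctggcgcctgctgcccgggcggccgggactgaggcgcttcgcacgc
Cd68: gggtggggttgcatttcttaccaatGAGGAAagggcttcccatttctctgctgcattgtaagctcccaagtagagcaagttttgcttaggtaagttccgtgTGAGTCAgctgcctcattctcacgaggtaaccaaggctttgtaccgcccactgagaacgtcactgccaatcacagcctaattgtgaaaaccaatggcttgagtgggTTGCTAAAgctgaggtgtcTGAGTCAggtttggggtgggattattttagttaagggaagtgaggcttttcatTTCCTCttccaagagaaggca

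Cd68 held AP-1 letters at 2 places, their first bases at -149 and -24 from the start, where 7.81% of the 32851 promoters in the table held any and 0.46% held 2 or more. PU.1 letters, those of the factor that macrophages depend on, were in Marco, Cd68, Stab1, Mrc1, Clec4e and Axl, 6 of the 8, and in 28.3% of all promoters. C/EBP letters were in Clec4e (capitals at -66) and Cd68 (at -43), and in 10.8% of all promoters. NF-kB, NRF2 and interferon response letters were in none of the 8 windows, and in 0.411%, 12.4% and 3.44% of all promoters. Mertk and Cd36 matched none of the 6 motifs. The Cd36 window (chr5:17835847-17836146) is at a RefSeq start inside the gene span given below, and not at the end of that span. A match is a run of letters in the window searched and says nothing of binding.

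The class A scavenger receptors are trimers with a collagen-like stalk. Marco (ENSMUSG00000026390; chr1:120474538-120505024 of GRCm38, minus strand, protein-coding) binds bacteria and inhaled particles, and is known as an inducible receptor of macrophages. It gave 5.93, 5.56 and 5.87 in the 3 LysM-Cre libraries before LPS, 5.90, 5.91 and 6.06 after 0.5 h, 6.25, 6.04 and 6.22 after 1 h and 7.43, 7.27 and 7.68 after 2 h. Neighbouring times overlapped up to 1 h, and all 2 h libraries lay above the rest. Libraries labelled FosKO gave 8.44, 8.77 and 8.43 before LPS, 8.68, 8.81 and 8.68 after 0.5 h, 8.67, 8.93 and 8.60 after 1 h and 9.29, 9.53 and 9.14 after 2 h. Every one of these lay above the highest LysM-Cre library, that at 2 h included. The difference was 2.76, 2.76, 2.56 and 1.87 at 0, 0.5, 1 and 2 h (SE 0.13, limma adjusted p at most 3.57e-10). Within the low and the high 18S set it was 2.62 and 2.84 after 0.5 h of LPS, then 2.54 and 2.51 after 1 h. The rise after 2 h was 1.67 in LysM-Cre (3.18-fold) and 0.77 in libraries labelled FosKO (1.71-fold), and the responses differed by -0.89 (SE 0.18, limma adjusted p 0.00138). The earlier rise at 1 h in LysM-Cre, 0.38 (limma adjusted p 0.0217), was lost without LysM-Cre replicate 2 at 0 h (adjusted p 0.134) or LysM-Cre replicate 1 (0.0727) or 3 (0.069) at 1 h, and in the 19 high 18S libraries alone (0.46, adjusted p 0.1).

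Msr1 (ENSMUSG00000025044; chr8:39581685-39642673, minus strand), the receptor of acetylated and oxidised LDL also called SR-A, moved as Marco did on a smaller scale. LysM-Cre libraries gave 13.01, 12.92 and 12.96 before LPS, 13.01, 12.97 and 12.99 after 0.5 h, 13.30, 13.27 and 13.27 after 1 h and 13.70, 13.70 and 13.76 after 2 h. Libraries labelled FosKO gave 13.43, 13.51 and 13.59 before LPS, 13.51, 13.53 and 13.59 after 0.5 h, 13.69, 13.72 and 13.63 after 1 h and 14.06, 13.99 and 13.98 after 2 h. At each time the 2 genotypes did not overlap, though LysM-Cre at 2 h reached the level of FosKO at 1 h. The difference was 0.54, 0.55, 0.40 and 0.29 (SE 0.04, limma adjusted p at most 1.78e-06). Within the low and high 18S sets it was 0.52 and 0.57 after 0.5 h of LPS, then 0.42 and 0.37 after 1 h. Msr1 rose by 0.76 after 2 h in LysM-Cre and by 0.50 in libraries labelled FosKO, and the responses differed by -0.25 (SE 0.05, limma adjusted p 0.00172). Quantile normalisation took the 2 h genotype difference to 0.06 (limma adjusted p 0.126) and the FosKO rise at 2 h to 0.02, turned the FosKO change at 1 h to -0.10, and took the LysM-Cre rise at 1 h to 0.08 (adjusted p 0.0583).

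Class B receptors span the membrane at both ends and carry lipid. Cd36 (ENSMUSG00000002944; chr5:17781690-17888801, minus strand) takes up oxidised LDL and long-chain fatty acids and helps bind dying cells. It gave 15.19, 15.19 and 15.20 in LysM-Cre libraries at 0 h and 14.68, 14.47 and 14.49 in libraries labelled FosKO. At 2 h it gave 15.31, 15.25 and 15.23 against 14.80, 14.61 and 14.71. The highest library labelled FosKO at any time, at 14.80, lay under the lowest LysM-Cre library, at 15.17. The difference was -0.65, -0.70, -0.63 and -0.56 at the 4 times (SE 0.06, limma adjusted p at most 5.39e-07), which is a level 1.47- to 1.62-fold lower. In the low and high 18S sets it was -0.56 and -0.77 after 0.5 h of LPS, then -0.49 and -0.73 after 1 h. The FosKO rise at 2 h was 0.16 (limma adjusted p 0.0375), but -0.37 after quantile normalisation, and 0.11 to 0.16 (adjusted p 0.0785 to 0.183) without FosKO replicate 2 or 3 before LPS or replicate 1 or 3 after 2 h. It was also lost with no filter (0.0573) or only the groups compared (0.0904), a fit that called the LysM-Cre changes of 0.11 at 1 h and 0.07 at 2 h. The FosKO change at 1 h, 0.12, was called at 0.19 and 0.18 without FosKO replicate 1 before LPS or replicate 2 after 1 h. The responses of the genotypes at 2 h differed by 0.09 (95% interval -0.10 to 0.28).

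Scarb1 (ENSMUSG00000037936; chr5:125277087-125341094, minus strand) is the receptor of high density lipoprotein and exchanges cholesterol with it. An unconfirmed gene model, Gm42633, overlaps it on the same strand. LysM-Cre libraries held it tightly, at 11.75 to 11.77 up to 1 h and at 11.68 to 11.72 at 2 h, and libraries labelled FosKO spread from 11.48 to 11.69. The genotypes did not overlap at any time, where 44.5% to 54.0% of all tested genes did not overlap at a given time. The difference was -0.17, -0.19, -0.11 and -0.07 (SE 0.04), with limma adjusted p of 0.00128, 0.000397, 0.035 and 0.121. The 1 h call was lost without any one of LysM-Cre replicates 1, 2 and 3 or FosKO replicates 2 and 3 at 1 h (-0.10 to -0.11, adjusted p 0.0695 to 0.104), and also with no filter on low values (0.0619), no variance trend (0.0527), an 18S term (0.0633) or the 19 high 18S libraries alone (0.153). At 2 h the difference was called with only the groups compared (adjusted p 0.0375) and, at -0.19, after quantile normalisation (adjusted p 0.00426). The change from before LPS to 2 h in LysM-Cre libraries was -0.06 and not called, but was called with only those groups (adjusted p 0.0283) and, at -0.31, after quantile normalisation (adjusted p 1.53e-05). In the low and high 18S sets the genotype difference was -0.16 and -0.20 after 0.5 h of LPS, then -0.07 and -0.13 after 1 h.

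Cd68 (ENSMUSG00000018774; chr11:69664213-69666153, minus strand), class D, is a heavily glycosylated protein of lysosomes and endosomes that serves as a macrophage marker. It gave 15.06, 15.12 and 15.07 in LysM-Cre libraries at 0 h and 15.23, 15.29 and 15.38 in libraries labelled FosKO. All LysM-Cre libraries of all times lay between 15.05 and 15.14, and all libraries labelled FosKO between 15.21 and 15.38. The difference was 0.21, 0.22, 0.14 and 0.17 (SE 0.04, limma adjusted p at most 0.00463). Within the low and high 18S sets it was 0.16 and 0.25 after 0.5 h of LPS, then 0.12 and 0.18 after 1 h. After quantile normalisation it was 0.01 at 1 h and -0.051 at 2 h, neither called. LPS changed Cd68 in neither genotype by the test, with changes at 2 h of 0.05 (95% interval -0.03 to 0.12) and 0.006 (-0.07 to 0.08). After quantile normalisation Cd68 was called lower after 1 h (-0.20 in LysM-Cre, -0.33 in FosKO) and 2 h (-0.32 and -0.52), and the responses at 2 h differed by -0.19 (adjusted p 0.00883).

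Stab1 (ENSMUSG00000042286; chr14:31139013-31168641, minus strand), or stabilin-1, class H, clears modified LDL and the matrix protein SPARC and binds phosphatidylserine. It gave 13.90, 13.84 and 13.82 in LysM-Cre libraries before LPS, 13.88, 13.88 and 13.87 after 0.5 h, 13.92, 13.72 and 13.71 after 1 h and 13.58, 13.50 and 13.39 after 2 h. In libraries labelled FosKO it gave 13.56, 13.57 and 13.47 before LPS, 13.64, 13.58 and 13.50 after 0.5 h, 13.59, 13.58 and 13.59 after 1 h and 13.47, 13.59 and 13.29 after 2 h. The genotypes lay apart up to 1 h and overlapped at 2 h. The difference was -0.32, -0.31, -0.20 and -0.04 (SE 0.06), with limma adjusted p of 0.000459, 0.00056, 0.0201 and 0.654. In the low and high 18S sets it was -0.23 and -0.34 after 0.5 h of LPS, then -0.12 and -0.33 after 1 h. The 1 h call was lost without LysM-Cre replicate 1 (-0.13, adjusted p 0.136) or FosKO replicate 2 (-0.19, adjusted p 0.057) at 1 h. Stab1 fell by 0.36 after 2 h in LysM-Cre (SE 0.06, limma adjusted p 4.52e-05), the change in libraries labelled FosKO was -0.08 (95% interval -0.21 to 0.05), and the responses differed by 0.28 (SE 0.09, limma adjusted p 0.0394). That last call did not hold when 1 library was left out, be it LysM-Cre replicate 1, 2 or 3 before LPS, LysM-Cre replicate 2 or 3 after 2 h, FosKO replicate 3 before LPS or FosKO replicate 1 or 2 after 2 h (0.21 to 0.29, adjusted p 0.0533 to 0.118). Nor did it hold with no filter, no variance trend, only the groups compared or quantile normalisation (0.26 to 0.28, adjusted p 0.056 to 0.134). Quantile normalisation called the LysM-Cre change at 1 h (-0.32, adjusted p 0.0022). The FosKO change at 2 h was called at -0.51 after quantile normalisation (adjusted p 7.39e-06) and at -0.15 without FosKO replicate 2 at 2 h (adjusted p 0.0443). Nt5dc2 overlaps Stab1 on the opposite strand, and its own difference between the genotypes was 0.03 at 0 h and 0.06 at 2 h, neither called.

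Of the C-type lectin receptors, Clec4e (ENSMUSG00000030142; chr6:123281789-123289870, minus strand), or Mincle, binds mycobacterial cord factor and the nuclear protein SAP130 of dying cells, and signals through the adaptor Fcer1g and the kinase Syk. LysM-Cre libraries gave 11.69, 11.64 and 11.59 before LPS, 12.63, 12.71 and 12.69 after 0.5 h, 13.84, 13.92 and 13.90 after 1 h and 14.44, 14.52 and 14.54 after 2 h. Libraries labelled FosKO gave 12.34, 12.76 and 12.89 before LPS, 13.41, 13.44 and 13.71 after 0.5 h, 14.20, 14.34 and 14.26 after 1 h and 14.72, 14.74 and 14.77 after 2 h. Each time lay above the one before in both genotypes, the genotypes did not overlap at any time, and the gap narrowed. Clec4e rose by 1.04, 2.25 and 2.86 in LysM-Cre (2.05-, 4.76- and 7.26-fold) and by 0.86, 1.60 and 2.08 in libraries labelled FosKO (1.81-, 3.04- and 4.24-fold; SE 0.09, limma adjusted p at most 1.41e-06). The genotype difference was 1.02, 0.84, 0.38 and 0.25 (SE 0.09), with limma adjusted p of 4.98e-08, 3.84e-07, 0.00331 and 0.0372. The call at 2 h was lost when any 1 of the 6 libraries at 2 h was left out (0.21 to 0.27, adjusted p 0.0521 to 0.119) or no filter was set (0.0614) or the 19 high 18S libraries were used alone (0.0552), and quantile normalisation took the 1 h difference to 0.19 (adjusted p 0.0628) and that at 2 h to 0.08 (adjusted p 0.45). In the low and high 18S sets the difference was 0.72 and 0.91 after 0.5 h of LPS, then 0.29 and 0.45 after 1 h. The responses differed by -0.18 at 0.5 h (95% interval -0.45 to 0.10), -0.65 at 1 h (limma adjusted p 0.0116) and -0.78 at 2 h (SE 0.13, limma adjusted p 0.00033). In the 19 high 18S libraries alone the 1 h value was -0.57 and not called (limma adjusted p 0.313), nor was it with only the groups compared (0.0894).

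Mrc1 (ENSMUSG00000026712; chr2:14229392-14332057, plus strand), the mannose receptor, takes up glycoproteins with terminal mannose and is known as a marker of alternatively activated macrophages. The microRNA gene Mir511 lies inside it on the same strand. All 24 libraries lay between 14.08 and 14.36, and the group means, from 14.13 to 14.28, had SDs of 0.01 to 0.11. No limma comparison called it. The genotype difference was 0.001 at 0 h (95% interval -0.11 to 0.11), -0.09 at 0.5 h (-0.21 to 0.02), 0.007 at 1 h (-0.11 to 0.12) and 0.13 at 2 h (0.01 to 0.24, limma adjusted p 0.0658). Without FosKO replicate 3 at 2 h that last value was 0.18 and called (adjusted p 0.0145). In the 19 high 18S libraries it was 0.13 and called (adjusted p 0.0347), as it was with a replicate block across genotypes (0.0189). After quantile normalisation Mrc1 was called lower in libraries labelled FosKO at 0.5 h (-0.19) and 1 h (-0.18). With that scaling its LPS changes were called too, at -0.23 and -0.47 after 1 and 2 h in LysM-Cre libraries and at -0.23, -0.29 and -0.46 after 0.5, 1 and 2 h in those labelled FosKO.

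The TAM kinase Mertk (ENSMUSG00000014361; chr2:128698956-128802894, plus strand) is the main receptor of resting macrophages for apoptotic cells coated with Gas6 or protein S. The antisense gene Gm14011 and the small nucleolar RNA gene Gm23172 overlap it. LysM-Cre libraries gave 9.81, 9.85 and 9.80 before LPS, 9.98, 9.91 and 9.81 after 0.5 h, 9.89, 9.79 and 9.86 after 1 h and 9.07, 9.09 and 9.25 after 2 h. Libraries labelled FosKO gave 10.66, 10.85 and 10.87 before LPS, 10.84, 10.87 and 10.99 after 0.5 h, 10.66, 10.84 and 10.69 after 1 h and 10.74, 10.86 and 10.75 after 2 h. The lowest library labelled FosKO, at 10.66, lay above the highest LysM-Cre library, at 9.98, and only LysM-Cre at 2 h stood apart from the other times of its genotype. The difference was 0.97, 1.00, 0.89 and 1.65 (SE 0.06, limma adjusted p at most 1.25e-09), or 1.96-, 2.00-, 1.85- and 3.13-fold. Within the low and high 18S sets it was 1.03 and 0.99 after 0.5 h of LPS, then 0.83 and 0.88 after 1 h. After 2 h Mertk fell by 0.68 in LysM-Cre (limma adjusted p 5.39e-09), the change in libraries labelled FosKO was -0.007 (95% interval -0.14 to 0.12), and the responses differed by 0.68 (SE 0.09, limma adjusted p 1.75e-05). After quantile normalisation the FosKO change was called at 1 h (-0.16, adjusted p 0.0369) and at 2 h (-0.21, adjusted p 0.00387).

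Axl (ENSMUSG00000002602; chr7:25757273-25788705, minus strand), the other TAM kinase, binds Gas6 and is known to be induced by interferons and inflammatory stimuli. Its SD within groups ran from 0.02 to 0.26. LysM-Cre libraries gave 11.40, 11.35 and 11.35 at 0 h and 11.42, 11.50 and 11.68 at 2 h, and libraries labelled FosKO gave 11.25, 11.43 and 11.68, then 11.70, 11.74 and 11.85. The genotypes overlapped at 0 h and lay just apart at 2 h. The difference was 0.08 at 0 h (95% interval -0.15 to 0.32), 0.26 at 0.5 h (0.02 to 0.50), 0.09 at 1 h (-0.14 to 0.33) and 0.23 at 2 h (-0.005 to 0.47), none called by limma. Without FosKO replicate 1 or 2 at 0.5 h the difference at that time was called (0.33 and 0.34, adjusted p 0.0429 and 0.0375), as it was in the 19 high 18S libraries alone (0.37, adjusted p 0.0366). With a replicate block across genotypes the differences at 0.5 h (adjusted p 0.00574) and 2 h (0.0106) were called. With only the groups compared the 2 h difference (adjusted p 0.0126) and the LysM-Cre change at 2 h, 0.16 (adjusted p 0.0201), were called. Within the low and high 18S sets the genotype difference was 0.04 and 0.37 after 0.5 h of LPS, then -0.14 and 0.33 after 1 h. In libraries labelled FosKO the 2 h rise was 0.31 (SE 0.11, limma adjusted p 0.0216), and was not called without FosKO replicate 1 (0.21) or 2 (0.30) at 0 h or replicate 3 (0.27) at 2 h, nor after quantile normalisation (0.02). The responses at 2 h differed by 0.15 (95% interval -0.19 to 0.48).

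**Figure D3:**
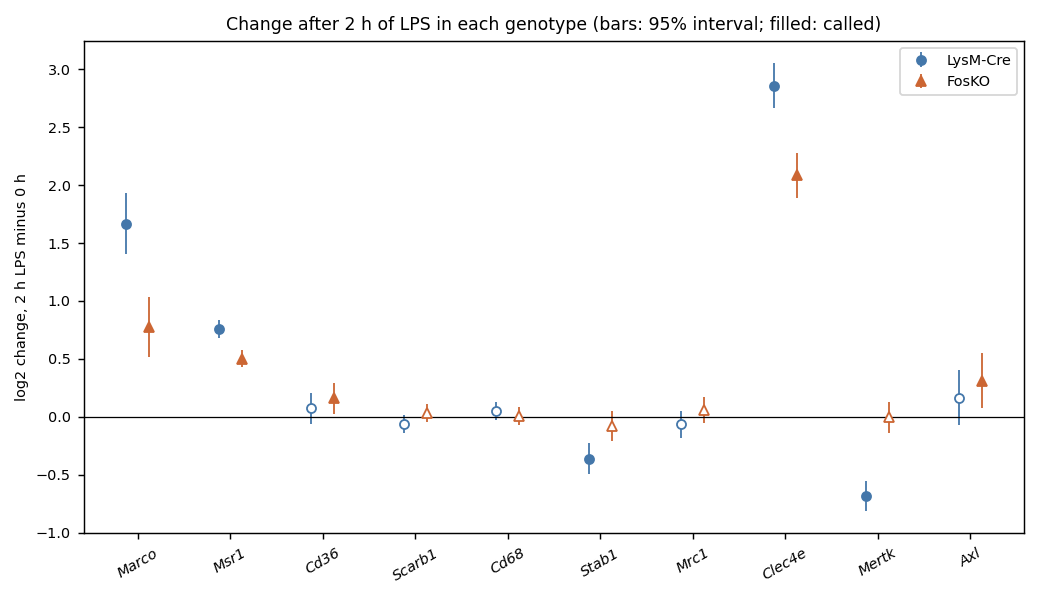
Change in log2 value from 0 h to 2 h of LPS (vertical axis) for each receptor in LysM-Cre libraries (circles) and libraries labelled FosKO (triangles), with 95% intervals from the limma fit on 3 libraries a group, filled where called. Clec4e rises by 2.86 and 2.08 and Marco by 1.67 and 0.77, and Mertk falls by 0.68 in LysM-Cre with a FosKO change of -0.007.

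Of 10 neutrophil markers 4 were tested, S100a8, S100a9, Ngp and Ltf, and 5 others in the table (Ly6g, Camp, Elane, Cxcr2 and Retnlg) lay under the filter. The 9 in the table summed to between 6.38 and 7.45 in LysM-Cre libraries and between 5.85 and 6.52 in libraries labelled FosKO. All 4 tested were called lower at 0, 1 and 2 h (median -0.73, -0.93 and -1.06), and 3 at 0.5 h (median -0.65). Of all genes 15.9%, 19.7%, 15.9% and 20.3% were called lower at 0, 0.5, 1 and 2 h. S100a8 and S100a9, mRNAs that fill neutrophils, reached no group mean above 5.67. The 8 dendritic cell markers summed to 5.53 to 7.15, rising after LPS, the 8 T and B cell markers, of which Cd4 and Cd79b alone were tested, to 7.90 to 8.59, and the 6 fibroblast markers in the table to 4.66 to 5.35, while the 2 mast cell and basophil markers in the table summed to 4.18 to 5.34. Between genotypes, the dendritic cell markers Ccr7 (0.52 and 0.46 at 0.5 and 1 h) and Xcr1 (0.42 at 1 h) were called higher and Zbtb46 lower (-0.96 at 2 h) in libraries labelled FosKO, and of the fibroblast markers Postn was higher (0.50 and 0.45 at 1 and 2 h) and Col3a1 lower (-0.53 at 2 h). Cd4 was called higher in libraries labelled FosKO at every time (0.36 to 0.45) and Cd79b lower after LPS (-0.26 to -0.38), and the mast cell marker Kit was called lower except at 2 h (-0.43 to -0.53). The part of these levels in the receptor differences was not tested, and in bulk libraries more cells of a kind and more mRNA per cell cannot be told apart.

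Marco and Clec4e, both higher before LPS in libraries labelled FosKO, differed in their course, and their Pearson r over the 24 libraries was 0.57. Marco and Msr1 had an r of 0.88, Marco and Cd68 0.90, Marco and Cd36 -0.85, and Clec4e and Mertk 0.09. Of the 10612 genes whose linear values averaged 50 or more, the 3 most like Marco were Hvcn1 (r 0.99), Parp3 (0.98) and Aars (0.98). Those most like Msr1 were Mpc1, Ifi205 and Fcgr2b (each 0.99), those most like Clec4e were Slfn2, Bcl2a1b (both 0.99) and Bcl2a1d (0.98), and those most like Mertk were Pde7b (0.98), Hacd4 and Ehd4 (both 0.97). Bcl2a1b and Bcl2a1d are near-identical copies whose reads are hard to part. All of these r values share the same 24 libraries, 2 genotypes and 4 times, and are given as descriptions.

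The other scavenger receptors were split between rises and falls, as the members were. Of 12 tested, 5 were called higher and 2 lower in libraries labelled FosKO before LPS, then 4 and 3 after 2 h (median differences 0.05 and 0.17). Over all tested genes 35.4% and 44.6% were called at these times, with medians of 0.003 and 0.004. Cd163, the haemoglobin receptor, was -1.07 (limma adjusted p 5.75e-05) at 0 h, Cd5l, a secreted scavenger protein of macrophages, was -1.04 at 2 h (3.02e-06), and Stab2, the relative of Stab1, was 0.65 higher at 0 h (7.92e-05). Olr1, the LOX-1 receptor of oxidised LDL, rose by 4.98 after 2 h in LysM-Cre and by 3.73 in libraries labelled FosKO, a difference in response of -1.25 (limma adjusted p 4.24e-06). Cxcl16, a scavenger receptor that is also a chemokine, rose by 0.87 and 0.61 (difference -0.27, adjusted p 0.0482). After 2 h in LysM-Cre 2 of the 12 were called higher and 4 lower (median -0.13), where 60.8% of all genes were called and 30.6% higher. Ager (-0.62) and Lrp1 (-0.46) were among those called lower. Scarf1, a receptor of modified LDL, was 0.77 higher and Olr1 -1.15 in libraries labelled FosKO at 2 h, and Colec12, a collagenous lectin, was 0.46 and 0.44 higher at 0 and 2 h.

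Of 13 other C-type lectin receptors tested, 7 were called higher and 3 lower before LPS, then 5 and 3 after 2 h, in libraries labelled FosKO (medians 0.18 and 0.10), against 35.4% and 44.6% of all genes. Clec4n, or Dectin-2, a neighbour of Clec4e in the lectin cluster, was 1.43 higher at 0 h (limma adjusted p 1.05e-10) and 1.53 at 2 h (2.18e-11). Ly75, or DEC-205, was 0.91 and 0.69 higher, and Mgl2, a galactose lectin, was -0.95 and -0.87. After 2 h in LysM-Cre 6 of the 13 were called higher and 0 lower, where 60.8% of all genes were called and 30.6% higher, among them Clec5a (1.24) and Clec4d (0.82), which pairs with Clec4e. In the pathway below Clec4e, 5 of 9 genes were called higher and 1 lower before LPS, then 4 and 1 after 2 h (medians 0.13 and 0.04), against the same shares of all genes, and all lay within 0.25 of 0, such as Syk (0.24 at 0 h), Vav1 (0.25 at 0 h) and the adaptor Fcer1g (0.17 at 2 h). Malt1, a subunit of the CARD9 complex, rose by 2.57 after 2 h in LysM-Cre. Syk rose in both genotypes, by 0.90 in libraries labelled FosKO, and its responses differed by -0.21 (limma adjusted p 0.0118).

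Bridging molecules, which link dying cells to these receptors, were called higher in 6 of 10 and lower in 2 of 10 at both 0 and 2 h in libraries labelled FosKO (medians 0.17 and 0.19), times at which 35.4% and 44.6% of all genes were called. Mfge8, which bridges phosphatidylserine to integrins, was 1.28 higher before LPS (limma adjusted p 3.02e-13) and 1.31 after 2 h (1.19e-13), and Thbs1, a ligand of Cd36, was 1.65 (2.22e-08) and 0.89 (2.63e-05) higher. Pros1, which codes for the Mertk ligand protein S, was -0.35 at 0 h (9.66e-05) and -0.17 at 2 h (0.0265), and Anxa1, a lipid-binding annexin, was -0.28 and -0.21. Thbs1 rose by 0.96 after 2 h in LysM-Cre and the change was 0.20 in libraries labelled FosKO, a difference in response of -0.76 (limma adjusted p 0.0128). Of 13 other apoptotic cell receptors tested, 3 were called higher and 4 lower before LPS, then 5 and 3 after 2 h (medians -0.11 and 0.08), against the same shares of all genes. Cd300lf was 1.15 and 1.27 higher at 0 and 2 h, Havcr2, or Tim-3, was -0.42 and -0.64, and the integrin chain Itgav was -0.32 and -0.44. Tyro3, the remaining TAM kinase, was low throughout, with a group mean of 4.67 at 2 h in libraries labelled FosKO, where it was 0.62 higher (limma adjusted p 6.16e-05).

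Of 15 engulfment genes tested, 2 were called higher and 4 lower before LPS, then 7 and 1 after 2 h (medians 0.007 and 0.09), where 35.4% and 44.6% of all genes were called, and the largest at 2 h were the adaptor Crkl (0.40) and the cholesterol exporter Abca1 (0.33). Of 7 genes of receptor shedding and of inhibitory signals, 4 were called higher and 1 lower before LPS, then 5 and 1 after 2 h (medians 0.15 and 0.15), against the same shares of all genes. The inhibitory receptors Siglece and Pilra gave -0.69 and 0.59 at 2 h, both called. Cd47, the signal that restrains engulfment, was 0.37 higher at 0 h. Adam17, the protease that sheds Mertk protein, rose by 0.68 after 2 h in LysM-Cre (limma adjusted p 4.39e-11), where 30.6% of all genes were called higher. It also rose by 0.56 in libraries labelled FosKO (8.69e-10). Its responses at 2 h did not differ by the test (-0.12, limma adjusted p 0.261).

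Of 16 transcription factors known to act on these receptors, 8 were called higher and 4 lower before LPS, then 9 and 1 after 2 h, where 35.4% and 44.6% of all genes were called (medians 0.10 and 0.21). Nr1h3, the oxysterol receptor LXR-alpha that acts on Mertk, was 0.80 higher at 0 h (limma adjusted p 9.14e-07). Pparg, which acts on Cd36, was -0.31 at 0 h (2.76e-05), and Klf4 was -0.39 at 0 h (4.64e-05) and 1.27 higher at 2 h (3.48e-12). Irf8 was 1.33 higher at 2 h (3.07e-15), having risen by 2.31 in libraries labelled FosKO. Tfec and Mitf, relatives that govern lysosomal genes, rose in LysM-Cre, Tfec by 2.67 after 2 h (limma adjusted p 8.2e-20).

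**Figure D4:**
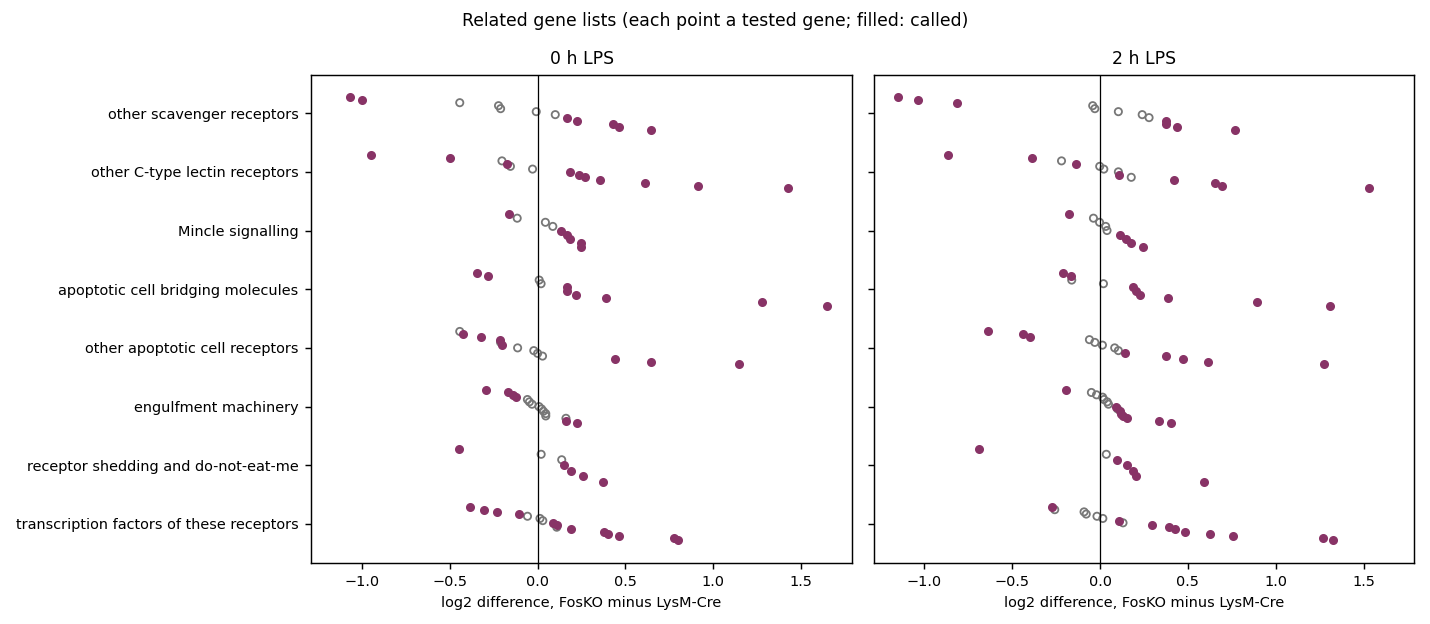
Difference in log2 value between libraries labelled FosKO and LysM-Cre libraries (horizontal axis) for each tested gene of 8 related lists, at 0 h (left) and 2 h (right), with 1 point per gene and filled points called by limma. Each list has called genes on both sides of 0, and the values at 2 h run from Olr1 at -1.15 to Clec4n at 1.53.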

How the data were processed

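Strand-specific, single-end TruSeq libraries were sequenced on a HiSeq instrument. According to the methods and the processing notes, the authors used STAR (2.5.2a) and RSEM (1.2.31) for alignment and counting against mm10 (GRCm38), and DESeq2, whose version is 1.16.1 in the processing notes and another in the methods. The methods name RefSeq genes, whereas the table carries Ensembl identifiers. The authors deposited 1 table of log2 normalised values, which resemble a regularised log, so differences of low genes may be understated. The methods give a typical yield of reads but no depth for single libraries, so no counting interval was computed. How reads on overlapping genes were assigned is not stated.

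All 24 libraries entered 1 limma fit (limma 3.58.1, R 4.3.3) of 8 group means with 16 residual degrees of freedom, and variances were moderated with a trend on the mean. A gene was tested if 3 or more libraries had a linear value of 5 or more. From the fit 13 comparisons were drawn, and the Benjamini-Hochberg threshold was 0.05. The 95% intervals come from the moderated standard errors and are not adjusted. The fit was tested on simulated data. An exact permutation test of 3 against 3 cannot give a two-sided p below 0.1 and was not used.

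The members and the gene lists (6 of cell markers, 8 related) were chosen with earlier results of these data known. Named genes are the 10 members, of each related list the 2 largest called rises and 2 largest called falls between genotypes at 0 and 2 h and after 2 h of LPS in LysM-Cre (not all are printed), and for members whose group means span at least 1 the 3 genes of highest correlation. Alternatives were no filter, a stricter filter (20), other scalings, no variance trend, a pseudocount of 1, an 18S term or the high 18S libraries alone, a replicate block, only the groups compared and leaving out each library. Coordinates are from GENCODE on GRCm38, and promoters from RefSeq.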

Additional observations from a re-analysis of the deposited data

Results flagged for a closer look

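The response to LPS differed between libraries labelled FosKO and LysM-Cre libraries, by the limma interaction test, for 5 members at 2 h, where 15.0% of all genes were called, and 1 at 1 h, where 1.22% were. The difference in response at 2 h was -0.89 for Marco, -0.25 for Msr1, -0.78 for Clec4e, 0.28 for Stab1 and 0.68 for Mertk, and at 1 h it was -0.65 for Clec4e. The Stab1 call was lost without any one of 8 libraries and with no filter, no variance trend, only the groups compared or quantile normalisation (0.21 to 0.29, adjusted p 0.0533 to 0.134). That of Clec4e at 1 h was lost with only the groups compared (0.0894) or the 19 high 18S libraries (0.313). In Marco, Msr1 and Clec4e the genotype with the higher level at 0 h rose less on the log2 scale, that is, by a smaller fold. Gains in linear value were not compared. Mertk fell by 0.68 in LysM-Cre in all 3 libraries at 2 h against all 3 at 0 h. Groups held 3 libraries, and single outlying libraries were not tested beyond leaving out each library in turn.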

How the results depend on the processing

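Of 2350 recomputed member values, 2251 kept their call or lack of one, and without a change of sign 53 calls were lost and 33 gained. Another 13 values changed sign and were called in the main fit, the alternative or both. Of values called in neither, 104 differed in sign. Genotype calls at 0 h did not change under any alternative. All 13 of these sign changes came from quantile normalisation, which lowered the 2 h LPS change of all 10 members in FosKO (by 0.02 to 0.53, median shift -0.44) and of 9 in LysM-Cre. They were Msr1 (FosKO 1 h, -0.10), Cd36 (LysM-Cre 2 h, -0.25; FosKO 2 h, -0.37), Scarb1 (LysM-Cre 1 h, -0.15; FosKO 2 h, -0.25), Cd68 (genotype at 2 h, -0.051; LysM-Cre 1 h, -0.20, and 2 h, -0.32; FosKO 2 h, -0.52) and Mrc1 (genotype at 1 h, -0.18; LysM-Cre 1 h, -0.23; FosKO 1 h, -0.29, and 2 h, -0.46). Msr1, and Cd36 in FosKO at 2 h, were called in both directions. The Cd68 genotype difference was called in the main fit alone, and the others after quantile normalisation alone. The cause was not tested. With that scaling the members called were 6 and 9 in LysM-Cre at 1 and 2 h and 2, 5 and 8 in FosKO at 0.5, 1 and 2 h. Of all 13901 genes 5442 and 8417, then 1071, 4994 and 8436 were called with it. With only the groups compared, 8 were called in LysM-Cre at 2 h (8796 of all genes) and 0 in the interaction at 1 h (112 of all genes), also 0 in the 19 high 18S libraries (93 of all genes). Leaving out 1 library gave 2 to 4 members in FosKO at 1 h (4 without FosKO replicate 1 at 0 h) and 3 to 6 at 2 h (3 without FosKO replicate 2 at 0 h or replicate 3 at 2 h). With all libraries it was 2 and 5 members, where 32.6% and 62.1% of all genes were called.

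Not every pair of same-numbered libraries deviated together (r -0.53 to 0.71, median 0.02; different numbers -0.59 to 0.68), so the numbers were not taken to pair libraries. Within a genotype r was -0.25 to 0.71 (median 0.06) for the same number and -0.59 to 0.42 (median -0.03) for different ones. A replicate block within genotype gave 4 members in FosKO at 1 h in place of 2, adding Marco and Cd36 (4948 of all genes). In LysM-Cre it gave 4 at 1 h, adding Cd36 (5442 of all genes), and 6 at 2 h, adding Axl (8684 of all genes). A replicate block across genotypes gave 8, 9, 8 and 8 members between genotypes at 0, 0.5, 1 and 2 h. It added Axl at 0.5 and 2 h and Mrc1 at 2 h. At these times 5136, 5886, 4876 and 6315 of all genes were called with it. Depth per library is not known here, so counting error could not be set against the spread between libraries.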
